A study of Mus musculus with 16 samples.

Results

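The genes described here code for synaptic vesicle proteins and for the machinery that docks, primes, fuses and retrieves vesicles at nerve terminals. They were 43 genes chosen by symbol, namely synapsins, vesicle membrane proteins, vesicular transporters, calcium sensors, SNARE proteins and their helpers, active zone scaffolds, endocytic proteins, Rab3 proteins and 1 synuclein. All 43 were among the 19457 genes of the deposited table, and all 43 were among the 18813 genes that were tested. Expression had been profiled by RNA-seq in mouse striatum, in 16 libraries that formed 8 groups of 2 libraries each. The mutant genotype, written GS in the sample names, carried LRRK2 G2019S by the title of the series, a substitution in the kinase LRRK2 that is known from familial Parkinson's disease, and the other genotype was WT. Each genotype was sampled intact and at 6 h, 3 d and 15 d after a unilateral injection of 0.8 μl of 500 mM ATP into the striatum, which was the injury. The 2 libraries of a group were labelled biological replicates. Whether GS was a knock-in or a transgenic line, which promoter drove it, and the age and sex of the animals were not given in the sources used here. Intact animals were not injected, and no vehicle-injected group was analysed here, so the needle, the volume and the ATP all enter every comparison with intact striatum. One genotype prefix in the deposited table, NT, was read as WT because it was the only prefix left for the WT samples.

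A nerve terminal stores transmitter in small vesicles that synapsins tether to each other and to the cytoskeleton. Vesicles dock at the active zone, a protein scaffold that also holds the calcium channels, and are primed there by Unc13 proteins. The vesicle SNARE (Vamp) zips together with the plasma membrane SNAREs (Snap25, syntaxin), complexins hold the complex ready, and calcium bound by synaptotagmins triggers fusion, after which dynamin and its partners retrieve the membrane. In the striatum most neurons are GABAergic projection neurons, and the RNA of these genes comes mostly from neurons whose cell bodies lie in the dissected tissue. Cortical, thalamic and dopaminergic inputs keep their RNA mostly in cell bodies elsewhere.

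The libraries held 49220578 to 63948110 counts each, and scaling factors ran from 0.947 to 1.034. Drd1, a dopamine receptor gene of striatal projection neurons, stood at 184.6 to 311 CPM (counts scaled to library size) in the 16 libraries, as the tissue label implies. Transcripts typical of cortical excitatory neurons varied among the WT libraries: Slc17a7 (VGLUT1) measured 30.3 and 30.4 CPM in GS intact striatum and 136 and 15.6 CPM in WT intact striatum. Changes are given below as log2 fold changes ± SE from edgeR, with p-values adjusted over all 18813 genes, and a gene passed when its adjusted p was under 0.05. With 2 libraries a group, these p-values rest on a spread between libraries that is pooled over all 8 groups and partly shared between genes. They do not measure the spread of the 2 libraries of a group alone. In bulk tissue, fewer nerve cells and less RNA per cell cannot be told apart.

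Genomic sequence around 3 gene starts is shown first, Syn1 and Unc13a because they fell in 5 or 6 of the 6 comparisons with intact striatum and because their windows held letters of RE1, the element bound by the repressor REST, which is known to silence neuronal genes in other cell types. Sv2c is shown as the member with the largest rise, at 6 h in WT. These 3 were chosen after their values were seen. Rph3a, which also fell in all 6 comparisons, and Cplx2, which fell in 5, had windows without letters of RE1 and are not shown. Syngr3 fell in 5 as well, but no window was found for it. Each window covers 250 bases before to 50 bases after an annotated gene start (GRCm38.p6). All 3 lie on the minus strand of the chromosome and are written 5′ to 3′ in the direction of the gene. For Unc13a that start lies within the RefSeq span of the gene, whose own start is 71671774. Syn1 is the window at chrX:20920869-20921168, Unc13a that at chr8:71671708-71672007 and Sv2c that at chr13:96132528-96132827. Capitals mark TTCAGCACC or GACAGCGCC, the left and the right part of RE1, and TGACGTCA, the cAMP response element, on either strand.
Syn1: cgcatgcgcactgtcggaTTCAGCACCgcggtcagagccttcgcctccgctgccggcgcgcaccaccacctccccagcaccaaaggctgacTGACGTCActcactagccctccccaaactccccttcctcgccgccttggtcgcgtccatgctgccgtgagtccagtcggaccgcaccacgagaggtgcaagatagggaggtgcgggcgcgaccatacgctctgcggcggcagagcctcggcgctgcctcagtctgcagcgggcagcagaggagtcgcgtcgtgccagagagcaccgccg
Unc13a: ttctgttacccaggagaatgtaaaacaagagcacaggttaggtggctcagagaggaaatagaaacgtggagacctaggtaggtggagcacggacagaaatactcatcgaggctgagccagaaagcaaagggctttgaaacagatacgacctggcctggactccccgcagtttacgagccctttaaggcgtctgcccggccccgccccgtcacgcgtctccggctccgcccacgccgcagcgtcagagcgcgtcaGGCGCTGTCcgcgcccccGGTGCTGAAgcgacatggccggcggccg
Sv2c: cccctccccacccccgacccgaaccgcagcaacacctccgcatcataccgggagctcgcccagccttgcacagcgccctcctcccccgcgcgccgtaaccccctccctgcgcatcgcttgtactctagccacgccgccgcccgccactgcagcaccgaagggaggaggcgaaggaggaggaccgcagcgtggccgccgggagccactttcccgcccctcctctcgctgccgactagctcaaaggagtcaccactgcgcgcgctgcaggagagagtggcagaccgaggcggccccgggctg
The Syn1 window held TTCAGCACC at offset -232 and TGACGTCA at offset -159, counted from 0 at the annotated start. The Unc13a window held both parts of RE1, in the transcribed stretch at offsets 22 and 4. Only exact letters of each part were searched, and the spacing between parts was not checked. A whole RE1 is therefore neither claimed nor denied for either window. The Sv2c window held none of these letters. Windows were found for 33 of the 43 members, 43 windows in all, among 32851 windows of the table. TTCAGCACC occurred in 2 member windows, those of Syn1 and Unc13a, and in 0.371% of all windows. GACAGCGCC occurred in 1 member window, that of Unc13a, and in 0.326% of all windows. TGACGTCA occurred in 1 member window, that of Syn1, and in 1.79% of all windows, and TGACTCA, the AP-1 site, in those of Erc2 and Syt2 and in 5.2% of all windows. Member windows had a median GC content of 61.3%, against 52.7% over all windows, and a median of 16 CpG dinucleotides, against 7. A match of letters is a description only and shows no binding.

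Most changes of the release machinery that passed came at 3 d and 15 d, and all of those were falls except that of Sv2c in WT at 3 d. At 6 h, 8 of 43 members passed in GS (2 higher, 6 lower), where 13.8% of all genes tested passed (7.47% higher, 6.37% lower), and 5 of 43 in WT (2 higher, 3 lower), where 4.09% did (2.54% higher, 1.55% lower). At 3 d, 24 members passed in GS, all lower, where 35.1% of all genes passed (16.4% lower). At the same time 19 passed in WT, 18 lower and 1 higher, where 27.4% of all genes passed (12.7% lower, 14.7% higher). At 15 d, 32 members passed in GS, all lower, where 37.1% of all genes passed (17.6% lower), and 24 in WT, all lower, where 25.4% did (11.2% lower). The changes were small for single genes: the median member stood at -0.05, -0.31 and -0.37 (log2) at 6 h, 3 d and 15 d in GS, and at -0.02, -0.18 and -0.29 in WT. The 15 d medians correspond to 0.773 of the intact level in GS and 0.817 in WT, while the median of all genes tested stayed within 0.0225 of 0 (log2) in each of these 6 comparisons. The log2 change was below 0 for 42 members in GS and 39 in WT at 3 d, and for 38 in GS and 40 in WT at 15 d. Of all 18813 genes it was below 0 for 9601 in GS and 9706 in WT at 3 d, and 9629 and 9964 at 15 d. Members also moved together between replicates of 1 group. In replicate 1, 37 members were higher than in replicate 2 in WT at 3 d, 7 in WT at 6 h and 25 in GS intact. The 43 members are thus not 43 independent observations. Summed over the 43 genes, GS libraries held 13268 and 13284 CPM intact, 12749 and 12328 at 6 h, 10946 and 10543 at 3 d and 10186 and 9789 at 15 d. WT libraries held 12801 and 12629 CPM intact, 12438 and 12811 at 6 h, 11891 and 10477 at 3 d and 10777 and 9956 at 15 d. In both genotypes the 3 d and 15 d sums were all below both intact sums. Over the 6 comparisons with intact striatum, 38 members passed at least once, and Syt4, Syt5, Syt11, Pclo and Rab3b passed in none.

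**Figure D1:**
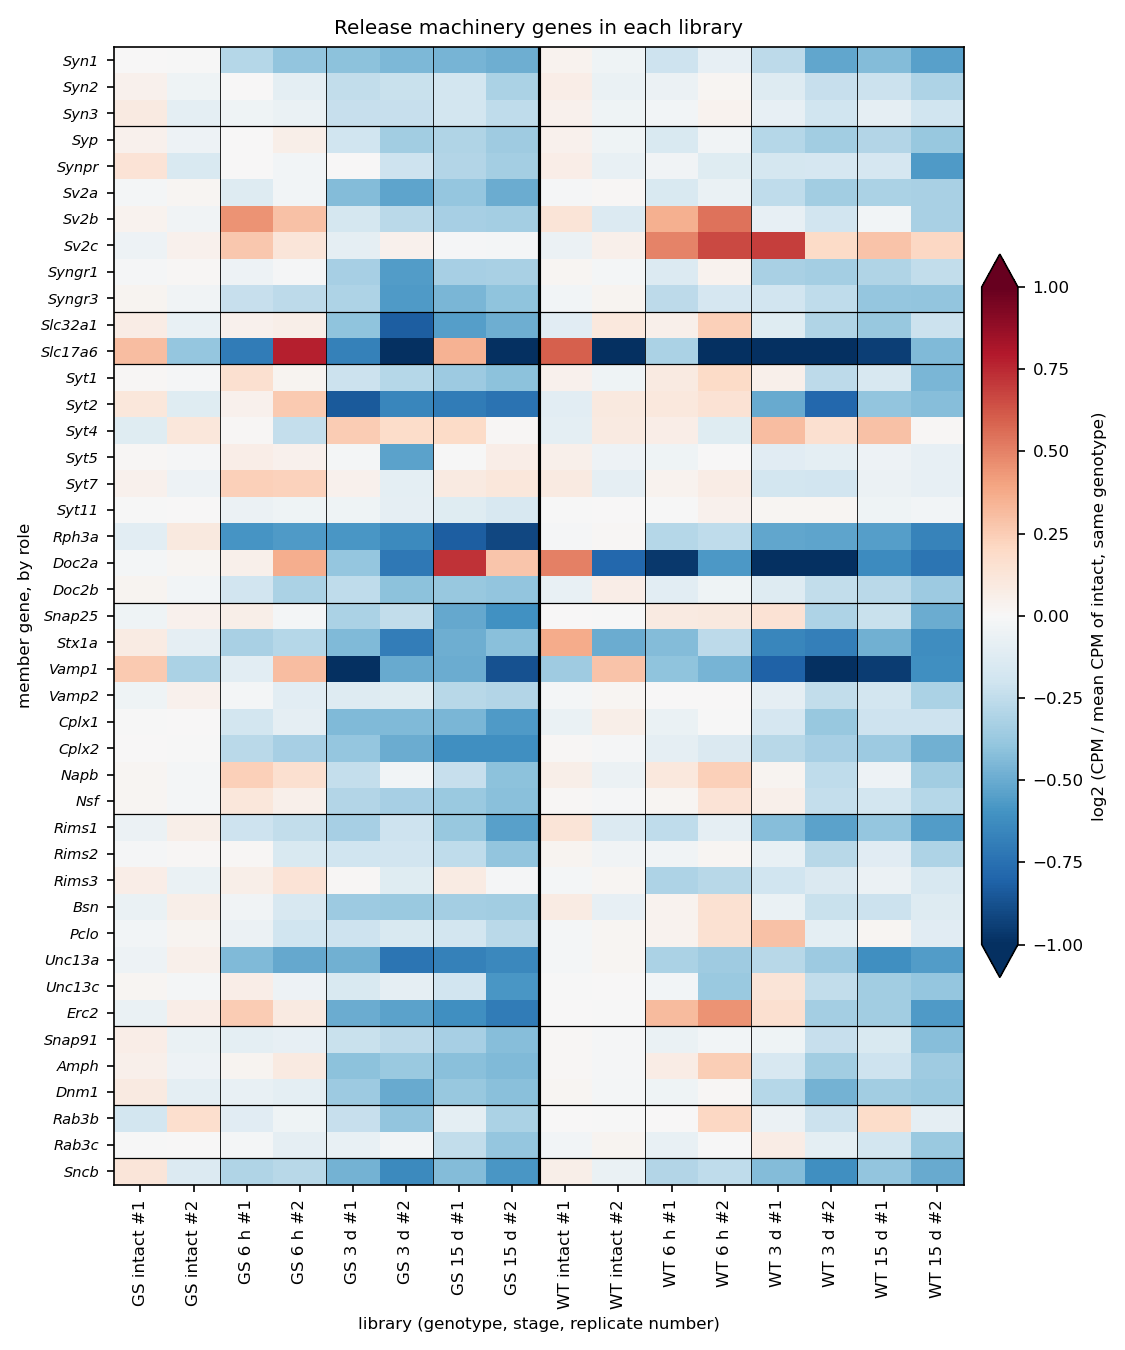
Level of each of the 43 members (rows, grouped by role) in each of the 16 libraries (columns, GS left of WT), as log2 of CPM over the mean CPM of the intact libraries of the same genotype. The colour scale ends at 1 in both directions, a limit that Slc17a6, Doc2a and Vamp1 reach. The 3 d and 15 d columns are mostly blue, while Sv2b and Sv2c are red at 6 h.

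The calls that held when each of the 16 libraries was left out in turn were 2 of 8 in GS at 6 h, 16 of 24 at 3 d and 21 of 32 at 15 d, and in WT none of 5 at 6 h, 8 of 19 at 3 d and 9 of 24 at 15 d. Rph3a and Unc13a were the 2 in GS at 6 h. The share of all genes that held or passed in the fits of this paragraph is not given here. A loss particular to the members can therefore not be read from these counts. The GS count at 6 h was 2 without GS intact replicate 1, 3 without GS intact replicate 2, 4 without GS 6 h replicate 1, 2 without GS 6 h replicate 2, and 5 without WT 6 h replicate 1 or 2 or GS 15 d replicate 1 or 2. The WT count at 6 h was 0 without WT intact replicate 1, 2 without WT intact replicate 2, 1 without WT 6 h replicate 1 and 0 without WT 6 h replicate 2. The WT count at 3 d was 11 without WT intact replicate 1. The WT count at 15 d was 12 without WT intact replicate 1, 14 without WT intact replicate 2 and 10 without WT 15 d replicate 2. In GS no single library moved the 3 d or 15 d count by more than 1.5 times. Under every alternative, other tools and the cortical fits included, 2 of 8, 16 of 24 and 21 of 32 calls held at 6 h, 3 d and 15 d in GS, and 0 of 5, 4 of 19 and 5 of 24 in WT.

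Synapsins tether vesicles in the reserve pool. Syn1 (NCBI Gene 20964, chromosome X, 20860511 to 20920918, minus strand) kept its 3 d and 15 d calls in both genotypes when any 1 library was left out, but its WT call at 3 d was lost with the mean level of cortical neuron markers as a covariate, and when the 3 WT libraries with most cortical transcripts were left out. GS libraries held Syn1 at 274 and 272 CPM in intact tissue, 224 and 207 at 6 h, 206 and 200.3 at 3 d, and 198 and 194 at 15 d. For Syn1, WT libraries read 284 and 269 CPM in intact tissue, 239.7 and 261 at 6 h, 231 and 192 at 3 d, and 204 and 189.8 at 15 d. In both genotypes all 6 libraries after injury were below both intact libraries. Syn1 fell at 6 h in GS, -0.34 ± 0.08 (adjusted p = 0.0137), where the change in WT was -0.14 ± 0.08 (adjusted p = 0.351). At 15 d it fell in GS, -0.48 ± 0.08 (adjusted p = 0.000415), and in WT, -0.49 ± 0.08 (adjusted p = 0.000766). For Syn2, GS libraries read 211 and 198 CPM in intact tissue, 205 and 191 at 6 h, 172 and 175 at 3 d, and 180.2 and 164 at 15 d. Syn2 in WT striatum measured 216 and 197 CPM in intact tissue, 198 and 209 at 6 h, 189 and 176 at 3 d, and 178 and 166 at 15 d. Syn2 libraries at 3 d and 15 d were below both intact libraries in each genotype, and those at 6 h overlapped the intact ones. The 15 d change was -0.25 ± 0.07 (adjusted p = 0.0157) in GS and -0.26 ± 0.07 (adjusted p = 0.0163) in WT. Syn3, expressed at 7.93 CPM per kb of exon over all libraries against 69 for Syn1, passed in GS only, at 3 d, -0.23 ± 0.08, and at 15 d, -0.22 ± 0.08, with -0.14 ± 0.08 in WT at 15 d. The 15 d call of Syn2 was lost in GS without GS intact replicate 1 or GS 15 d replicate 2 (adjusted p up to 0.155) and in WT without WT intact replicate 1 or WT 15 d replicate 2 (adjusted p up to 0.158). That of Syn3 at 15 d in GS was lost without 5 of the 16 libraries (adjusted p up to 0.352), and at 3 d without GS intact replicate 1, GS 3 d replicate 1 or GS 3 d replicate 2 (adjusted p up to 0.302). The 6 h call of Syn1 was lost without either GS intact library or without GS 6 h replicate 2 (adjusted p up to 0.129).

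Of the 7 genes of vesicle membrane proteins, 6 were lower at 15 d in GS and 5 in WT, while Sv2b and Sv2c rose at 6 h, Sv2b in both genotypes and Sv2c in WT. Syp codes for synaptophysin, the abundant tetraspan protein of the vesicle. Syp in GS striatum measured 441 and 414 CPM in intact tissue, 428 and 445 at 6 h, 372 and 335 at 3 d, and 346 and 334 at 15 d. WT libraries held Syp at 471 and 444 CPM in intact tissue, 412 and 446 at 6 h, 375 and 359 at 3 d, and 374 and 352 at 15 d. Both genotypes had their 3 d and 15 d libraries below the intact ones. Syp fell at 15 d in GS, -0.33 ± 0.07 (adjusted p = 0.00235), and in WT, -0.33 ± 0.07 (adjusted p = 0.00376). The WT call was lost when the 3 WT libraries with most cortical transcripts were left out. Of the exon bases of Syp, 33.8% overlap Gm14703 on the opposite strand. The sources used here do not say whether reads were counted by strand. GS libraries held Synpr at 159 and 130.1 CPM in intact tissue, 145 and 142 at 6 h, 145 and 125 at 3 d, and 118 and 114 at 15 d. For Synpr, WT libraries read 177 and 160.3 CPM in intact tissue, 165 and 154 at 6 h, 149 and 149.6 at 3 d, and 150.1 and 114 at 15 d. Synpr, the related synaptoporin, lay below both intact libraries at 15 d in each genotype, where it passed in GS, -0.32 ± 0.12 (adjusted p = 0.0461), and in WT, -0.35 ± 0.12 (adjusted p = 0.039). Synaptogyrins are further tetraspan vesicle proteins. Syngr1 changed by -0.33 ± 0.08 in GS and -0.27 ± 0.08 in WT at 15 d, and Syngr3 by -0.43 ± 0.08 in GS and -0.39 ± 0.08 in WT, all of which passed. Syngr3 also fell at 6 h in GS, -0.24 ± 0.07 (adjusted p = 0.0428), and this call was lost without 10 of the 16 libraries (adjusted p up to 0.198). The 15 d call of Synpr was lost in GS without 9 of the 16 libraries (adjusted p up to 0.387) and in WT without 6 of the 16 libraries (adjusted p up to 0.376), and that of Syngr1 in WT without WT intact replicate 1, WT 15 d replicate 1 or WT 15 d replicate 2 (adjusted p up to 0.103).

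SV2 proteins are vesicle glycoproteins with a transporter fold, and the 3 paralogs differed in their calls. For Sv2a, GS libraries read 314 and 321 CPM in intact tissue, 290.0 and 311 at 6 h, 236 and 219.6 at 3 d, and 242 and 225 at 15 d. Sv2a in WT striatum measured 298 and 303 CPM in intact tissue, 271 and 288 at 6 h, 252 and 236 at 3 d, and 241 and 241 at 15 d. Sv2a, the widespread paralog and the target of the drug levetiracetam, was below its intact libraries in all 6 injured libraries of each genotype. It fell at 3 d in GS, -0.48 ± 0.07 (adjusted p = 9.23e-05), and in WT, -0.30 ± 0.07 (adjusted p = 0.00396). The WT call was lost with the mean level of cortical neuron markers as a covariate. Sv2b (NCBI Gene 64176, chromosome 7, 75114894 to 75309262, minus strand) peaked early. Sv2b in GS striatum measured 159 and 152 CPM in intact tissue, 213 and 190.2 at 6 h, 138 and 129 at 3 d, and 123 and 123 at 15 d. WT libraries held Sv2b at 172 and 143 CPM in intact tissue, 202 and 230.1 at 6 h, 149 and 138 at 3 d, and 154 and 126 at 15 d. At 6 h Sv2b was above every other stage in both genotypes, without overlap. It rose at 6 h in GS, 0.37 ± 0.10 (adjusted p = 0.0289), and in WT, 0.45 ± 0.10 (adjusted p = 0.0279). By 15 d it was lower than intact in GS, -0.34 ± 0.11 (adjusted p = 0.0211), and stood at -0.17 ± 0.10 (adjusted p = 0.256) in WT. The GS call at 15 d was lost without GS intact replicate 1, GS 15 d replicate 1 or GS 15 d replicate 2 (adjusted p up to 0.106). The 6 h call was lost in each genotype when any of the 4 libraries compared was left out (adjusted p up to 0.215 in GS and 0.256 in WT). Sv2c (NCBI Gene 75209, chromosome 13, 95959443 to 96132577, minus strand) is the paralog known for its enrichment in basal ganglia. GS libraries held Sv2c at 104 and 111 CPM in intact tissue, 129.9 and 117 at 6 h, 101 and 110.5 at 3 d, and 106 and 106 at 15 d. For Sv2c, WT libraries read 85 and 91.8 CPM in intact tissue, 125 and 140.0 at 6 h, 143 and 101 at 3 d, and 108 and 102 at 15 d. In WT all 6 injured libraries were above both intact ones, and WT 3 d replicate 1 stood well above replicate 2. In GS the 6 h libraries were above the intact ones and the later ones overlapped them. Sv2c rose in WT at 6 h, 0.58 ± 0.12 (adjusted p = 0.0183), and at 3 d, 0.46 ± 0.12 (adjusted p = 0.0113), and the GS changes were 0.20 ± 0.12 (adjusted p = 0.301) and -0.03 ± 0.12 (adjusted p = 0.894). The difference between these responses did not pass at 6 h, -0.38 ± 0.17 (adjusted p = 0.504), or at 3 d, -0.49 ± 0.17 (adjusted p = 0.45). Without WT 3 d replicate 2 the 3 d difference passed, and without WT 3 d replicate 1 the WT call at 3 d was lost. The WT calls of Sv2c were also lost without WT intact replicate 1 (at both times), WT intact replicate 2 (at 6 h) or WT 6 h replicate 2 (at 6 h), with adjusted p up to 0.176 at 6 h and 0.153 at 3 d.

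**Figure D2:**
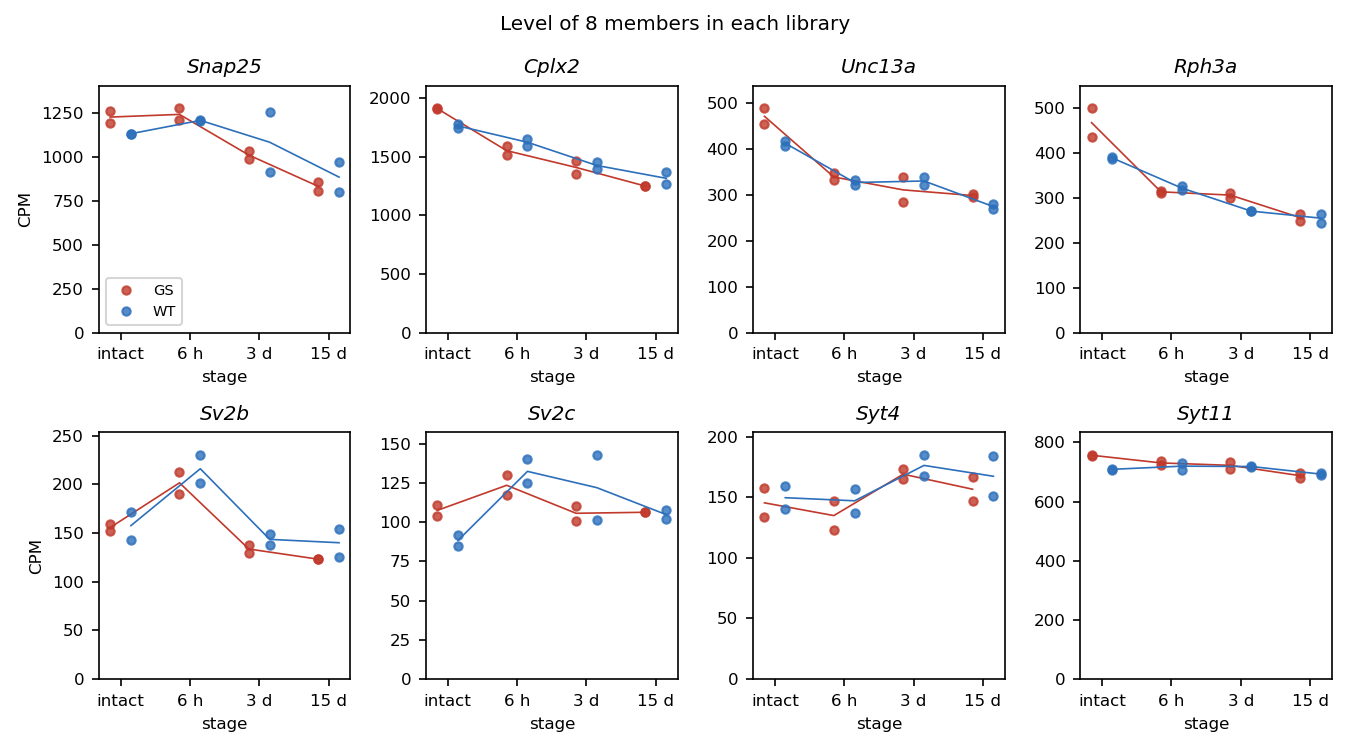
CPM of 8 members in each library against stage (intact, 6 h, 3 d, 15 d), GS in red left of WT in blue, with lines through the group means of 2 libraries. Cplx2, Unc13a and Rph3a are already lower at 6 h, Snap25 is lower at 15 d, Sv2b is highest at 6 h, and Syt11 stays between 678.7 and 758 CPM.

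Vesicular transporters load the transmitter. Slc32a1 (NCBI Gene 22348, chromosome 2, 158607260 to 158615747, plus strand) codes for the GABA transporter VGAT, present in projection neurons and interneurons. For Slc32a1, GS libraries read 237 and 215 CPM in intact tissue, 233 and 235 at 6 h, 171 and 127 at 3 d, and 154 and 161 at 15 d. Slc32a1 in WT striatum measured 186 and 216 CPM in intact tissue, 208 and 237 at 6 h, 185 and 164 at 3 d, and 155 and 174 at 15 d. The 3 d and 15 d libraries lay below both intact libraries in each genotype, and those at 6 h did not. Slc32a1 fell in GS at 3 d, -0.60 ± 0.12 (adjusted p = 0.00163), and at 15 d, -0.52 ± 0.12 (adjusted p = 0.00382), and did not pass in WT, -0.21 ± 0.12 (adjusted p = 0.226) and -0.29 ± 0.12 (adjusted p = 0.0907). The difference between genotypes did not pass at either time, -0.39 ± 0.17 (adjusted p = 0.477) at 3 d and -0.23 ± 0.17 (adjusted p = 0.921) at 15 d. An opposite-strand gene, Gm14205, covers 24.9% of its exon bases. Slc17a6 codes for VGLUT2, the vesicular glutamate transporter of thalamic neurons. Slc17a6 in GS striatum measured 1.38 and 0.855 CPM in intact tissue, 0.689 and 1.92 at 6 h, 0.702 and 0.348 at 3 d, and 1.43 and 0.523 at 15 d. WT libraries held Slc17a6 at 3.12 and 0.995 CPM in intact tissue, 1.65 and 0.74 at 6 h, 0.257 and 0.554 at 3 d, and 1.07 and 1.51 at 15 d. Every Slc17a6 value was low, down to 15 counts in the lowest library, and WT intact replicate 1 was the highest of all 16. The WT change at 3 d passed, -2.33 ± 0.68 (adjusted p = 0.0205), and was lost without WT intact replicate 1 or WT 3 d replicate 1 (adjusted p up to 0.292). The GS change at 3 d was -1.08 ± 0.68 (adjusted p = 0.236).

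Among the calcium sensors and related C2-domain proteins the members went different ways. Syt1 is the sensor of fast synchronous release in forebrain neurons. GS libraries held Syt1 at 851 and 837 CPM in intact tissue, 943 and 859.8 at 6 h, 729 and 693 at 3 d, and 655 and 635 at 15 d. For Syt1, WT libraries read 859 and 809 CPM in intact tissue, 889 and 951 at 6 h, 865 and 694 at 3 d, and 747 and 608 at 15 d. Both genotypes had Syt1 above intact at 6 h and below it at 15 d without overlap, and WT 3 d replicates fell on either side of intact. The 6 h changes did not pass, 0.09 ± 0.10 in GS and 0.14 ± 0.10 in WT. It fell at 15 d in GS, -0.39 ± 0.10 (adjusted p = 0.00962), and in WT, -0.30 ± 0.10 (adjusted p = 0.0485). The GS call was lost without GS 15 d replicate 2 (adjusted p = 0.0662), and the WT call without 13 of the 16 libraries (up to 0.392). Syt2 (NCBI Gene 20980, chromosome 1, 134646534 to 134753149, plus strand) is the other fast sensor, typical of fast-spiking interneurons and hindbrain neurons. For Syt2, GS libraries read 100.1 and 85 CPM in intact tissue, 95.2 and 111 at 6 h, 51.7 and 58.9 at 3 d, and 56.9 and 55.6 at 15 d. Syt2 in WT striatum measured 80.9 and 92.8 CPM in intact tissue, 93.3 and 95.9 at 6 h, 61.1 and 50.4 at 3 d, and 66.2 and 64.8 at 15 d. Syt2 was not lower at 6 h and was clearly below intact at 3 d and 15 d in both genotypes. It fell at 3 d in GS, -0.74 ± 0.11 (adjusted p = 0.000151), and in WT, -0.64 ± 0.11 (adjusted p = 0.000798), and at 15 d in GS, -0.72 ± 0.11 (adjusted p = 0.000165), and in WT, -0.41 ± 0.11 (adjusted p = 0.0136). The WT fall at 15 d did not pass without WT intact replicate 2 or WT 15 d replicate 2 (adjusted p up to 0.119), and the other 3 held without each library.

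Syt4, Syt7 and Syt11 had no fall that passed. Syt4 is a synaptotagmin that binds calcium poorly and sits on dense-core vesicles. Syt4 in GS striatum measured 133 and 157 CPM in intact tissue, 147 and 123 at 6 h, 173 and 165 at 3 d, and 166 and 147 at 15 d. WT libraries held Syt4 at 140.2 and 159 CPM in intact tissue, 157 and 137 at 6 h, 185 and 168 at 3 d, and 184 and 151 at 15 d. Syt4 was above both intact libraries at 3 d in each genotype and overlapped them at 6 h and 15 d. None of its changes passed, with 0.22 ± 0.12 (adjusted p = 0.169) in GS and 0.24 ± 0.12 (adjusted p = 0.153) in WT at 3 d. Of its exon bases 14.5% overlap an opposite-strand gene, Gm26658. Syt7 is the high-affinity sensor of asynchronous release. GS libraries held Syt7 at 202 and 189 CPM in intact tissue, 231 and 229 at 6 h, 201 and 183 at 3 d, and 208 and 212 at 15 d. For Syt7, WT libraries read 238 and 210.0 CPM in intact tissue, 229 and 236 at 6 h, 197 and 196 at 3 d, and 215 and 211 at 15 d. In GS the 6 h and 15 d libraries lay above both intact ones, while in WT the 3 d libraries lay below them. Syt7 rose at 6 h in GS, 0.23 ± 0.07 (adjusted p = 0.0361), where the WT change was 0.05 ± 0.07 (adjusted p = 0.715). The GS call was lost without 8 of the 16 libraries, the 4 compared among them (adjusted p up to 0.252). Syt11 is a synaptotagmin that does not bind calcium and is also found in glia. For Syt11, GS libraries read 756 and 758 CPM in intact tissue, 725 and 736 at 6 h, 735 and 709.6 at 3 d, and 697 and 679 at 15 d. Syt11 in WT striatum measured 707 and 711 CPM in intact tissue, 708 and 732 at 6 h, 718 and 719 at 3 d, and 689.6 and 696 at 15 d. Its whole range was 678.7 to 758 CPM, the narrowest relative range of the 43 members, and no edgeR test of it passed. The largest Syt11 change was -0.14 ± 0.06 (adjusted p = 0.0676) in GS at 15 d, which passed in DESeq2 (adjusted p = 0.0167) and limma-voom (adjusted p = 0.0432). Syt5, a further sensor, did not pass either, with 0.03 ± 0.11 in GS and -0.07 ± 0.11 in WT at 15 d.

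Rph3a (NCBI Gene 19894, chromosome 5, 120940499 to 121010116, minus strand) codes for rabphilin, a Rab3 effector with C2 domains, and had the lowest adjusted p of all members in GS at each time. Rph3a in GS striatum measured 435 and 499 CPM in intact tissue, 311 and 316 at 6 h, 312 and 300.2 at 3 d, and 263 and 249 at 15 d. WT libraries held Rph3a at 386 and 391 CPM in intact tissue, 318 and 325 at 6 h, 271 and 269.7 at 3 d, and 265 and 245 at 15 d. All injured libraries were below all intact libraries of their genotype, and the GS intact values were above the WT intact ones. Rph3a passed in all 6 comparisons. In GS it fell at 6 h, -0.58 ± 0.07 (adjusted p = 0.000246), at 3 d, -0.61 ± 0.07 (adjusted p = 2.52e-05), and at 15 d, -0.87 ± 0.07 (adjusted p = 2.09e-06). In WT it fell at 6 h, -0.27 ± 0.07 (adjusted p = 0.0423), at 3 d, -0.52 ± 0.07 (adjusted p = 0.000145), and at 15 d, -0.61 ± 0.07 (adjusted p = 5.4e-05). The WT call at 6 h was lost without 8 of the 16 libraries (adjusted p up to 0.205), and the other Rph3a calls held without each library. Doc2 proteins are soluble C2 proteins tied to spontaneous release. Doc2b fell in GS at 6 h, -0.25 ± 0.07 (adjusted p = 0.0375), at 3 d, -0.33 ± 0.07 (adjusted p = 0.00331), and at 15 d, -0.39 ± 0.07 (adjusted p = 0.00105), and in WT at 15 d, -0.32 ± 0.07 (adjusted p = 0.00699). Its 6 h call was lost without 8 of the 16 libraries (adjusted p up to 0.262), and its WT call without WT intact replicate 2 or WT 15 d replicate 2 (adjusted p up to 0.076). GS libraries held Doc2a at 2.46 and 2.53 CPM in intact tissue, 2.59 and 3.21 at 6 h, 1.91 and 1.52 at 3 d, and 4.12 and 3.03 at 15 d. For Doc2a, WT libraries read 6.89 and 2.82 CPM in intact tissue, 2.49 and 3.27 at 6 h, 2.09 and 2.39 at 3 d, and 3.13 and 2.93 at 15 d. WT intact replicate 1, the library with the most cortical transcripts, held the highest Doc2a value of all 16 libraries. The WT change at 3 d passed, -1.12 ± 0.32 (adjusted p = 0.0188), and was lost without WT intact replicate 1 or either WT 3 d library (adjusted p up to 0.468). With 37.5% of its exon bases shared with Ino80e on the opposite strand, the origin of its few counts is uncertain.

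The 4 members with the highest levels per kb were SNARE or complexin genes, and 7 of the 8 genes of SNAREs and their helpers fell at 15 d in GS and 5 in WT. Per kb of exon, Snap25 (NCBI Gene 20614, chromosome 2, 136713439 to 136782428, plus strand) led all members with a mean of 482 CPM per kb over the 16 libraries, followed by Cplx2 with 310.3, Vamp2 with 236, Cplx1 with 206 and Syt1 with 164. Snap25 codes for the plasma membrane SNARE that supplies a pair of helices to the complex. For Snap25, GS libraries read 1189 and 1262 CPM in intact tissue, 1275 and 1207 at 6 h, 987 and 1032 at 3 d, and 859 and 805 at 15 d. Snap25 in WT striatum measured 1131 and 1130.1 CPM in intact tissue, 1203 and 1210.2 at 6 h, 1253 and 912 at 3 d, and 968 and 800.0 at 15 d. At 15 d every library was below every intact one in each genotype, GS was below intact at 3 d as well, and the WT 3 d replicates fell on either side. Snap25 fell at 15 d to 0.679 of the intact level in GS, -0.56 ± 0.12 (adjusted p = 0.00192), and to 0.782 in WT, -0.35 ± 0.12 (adjusted p = 0.0394). At 3 d it was -0.28 ± 0.12 (adjusted p = 0.08) in GS and -0.06 ± 0.12 (adjusted p = 0.733) in WT. The GS call at 15 d held without each library, and the WT call was lost without 9 of the 16 libraries (adjusted p up to 0.31).

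Stx1a codes for syntaxin 1A. Stx1a in GS striatum measured 33.6 and 29.9 CPM in intact tissue, 25.4 and 26.1 at 6 h, 23.3 and 19.6 at 3 d, and 22.7 and 23.8 at 15 d. WT libraries held Stx1a at 47.4 and 26 CPM in intact tissue, 27.2 and 30.6 at 6 h, 23.3 and 22.8 at 3 d, and 26.2 and 23.8 at 15 d. In GS all injured libraries were below both intact ones, and in WT 1 intact library, replicate 1, stood apart from the other 7. Stx1a fell at 3 d in GS, -0.56 ± 0.19 (adjusted p = 0.0312), and in WT, -0.67 ± 0.19 (adjusted p = 0.0164), and in WT at 15 d, -0.55 ± 0.19 (adjusted p = 0.0431), where 1 library lay above WT intact replicate 2. Without WT intact replicate 1 neither WT call remained, and adjusted p reached 0.388 at 3 d and 0.818 at 15 d over all libraries left out. The GS call at 3 d was lost without either GS intact library or without GS 3 d replicate 2 (adjusted p up to 0.206). Vamp1 (NCBI Gene 22317, chromosome 6, 125215581 to 125222306, plus strand) and Vamp2 code for the vesicle SNAREs synaptobrevin 1 and 2. GS libraries held Vamp1 at 56.8 and 38 CPM in intact tissue, 44.1 and 58.8 at 6 h, 23.4 and 33.4 at 3 d, and 33.6 and 25.8 at 15 d. For Vamp1, WT libraries read 43.2 and 67.1 CPM in intact tissue, 41.8 and 39.9 at 6 h, 31.5 and 23.6 at 3 d, and 28.6 and 36 at 15 d. Replicates of Vamp1 differed widely, yet all 3 d and 15 d libraries were below both intact ones in each genotype. It fell at 3 d in GS, -0.74 ± 0.24 (adjusted p = 0.0293), and in WT, -1.0 ± 0.24 (adjusted p = 0.00785), and at 15 d in GS, -0.67 ± 0.24 (adjusted p = 0.0424), and in WT, -0.77 ± 0.24 (adjusted p = 0.0313). Each of the 4 calls was lost without 2 to 4 libraries: at 3 d GS intact replicate 1 or GS 3 d replicate 1 in GS and WT intact replicate 2 or WT 3 d replicate 2 in WT. At 15 d these were GS intact replicate 1, WT 6 h replicate 1 or 2 or GS 15 d replicate 2 in GS, and WT intact replicate 2 or either WT 15 d library in WT, with adjusted p up to 0.373 in GS and 0.301 in WT. With DESeq2 only the WT call at 3 d remained, and the GS call at 15 d was also lost with limma-voom and without a filter on low counts. For Vamp2, GS libraries read 685 and 729 CPM in intact tissue, 697 and 655 at 6 h, 646 and 649 at 3 d, and 583 and 578 at 15 d. Vamp2 in WT striatum measured 720.0 and 737 CPM in intact tissue, 731 and 732 at 6 h, 685 and 614 at 3 d, and 643 and 585 at 15 d. Vamp2 libraries at 3 d and 15 d were below both intact ones in each genotype. The 15 d change passed in GS, -0.28 ± 0.07 (adjusted p = 0.00569), and in WT, -0.25 ± 0.07 (adjusted p = 0.0197). It was lost in GS without GS intact replicate 2 (adjusted p = 0.0574) and in WT without WT intact replicate 1, WT intact replicate 2 or WT 15 d replicate 2 (adjusted p up to 0.177).

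Complexins bind the assembled SNARE complex. Cplx1 in GS striatum measured 541 and 543 CPM in intact tissue, 478 and 509 at 6 h, 399.9 and 399 at 3 d, and 395 and 367 at 15 d. WT libraries held Cplx1 at 469 and 512 CPM in intact tissue, 468 and 489.6 at 6 h, 436 and 377 at 3 d, and 425 and 425 at 15 d. In GS all injured libraries were below both intact ones, and in WT the 3 d and 15 d libraries were. Cplx1 fell at 15 d in GS, -0.51 ± 0.08 (adjusted p = 0.000135), and stood at -0.21 ± 0.08 (adjusted p = 0.0576) in WT. At 3 d both genotypes passed, -0.44 ± 0.08 in GS and -0.27 ± 0.08 in WT, where the call was lost without WT intact replicate 2 or WT 3 d replicate 2 (adjusted p up to 0.158). Cplx2 (NCBI Gene 12890, chromosome 13, 54301964 to 54383923, plus strand) had the largest count of all members. GS libraries held Cplx2 at 1909.9 and 1907 CPM in intact tissue, 1587 and 1513 at 6 h, 1463 and 1351 at 3 d, and 1248 and 1248 at 15 d. For Cplx2, WT libraries read 1779 and 1743 CPM in intact tissue, 1651 and 1592 at 6 h, 1452 and 1395 at 3 d, and 1366 and 1263 at 15 d. No library of a later stage reached any library of an earlier stage in GS, and the same held in WT. Cplx2 fell in GS at 6 h, -0.30 ± 0.07 (adjusted p = 0.00982), at 3 d, -0.44 ± 0.07 (adjusted p = 0.00022), and at 15 d, -0.61 ± 0.07 (adjusted p = 1.47e-05). In WT it stood at -0.12 ± 0.07 (adjusted p = 0.344) at 6 h and fell at 3 d, -0.31 ± 0.07 (adjusted p = 0.00425), and 15 d, -0.42 ± 0.07 (adjusted p = 0.000551). The 6 h call in GS was lost without either GS intact library or without GS 6 h replicate 2 (adjusted p up to 0.101), and the 3 d and 15 d calls of Cplx2 held without each library in both genotypes. The WT call at 3 d was lost in a fit of WT intact and WT 3 d libraries alone, with the cortical covariate, and when those 3 WT libraries were left out. Nsf, the ATPase that takes spent SNARE complexes apart, fell in GS at 3 d, -0.31 ± 0.08, and 15 d, -0.39 ± 0.08, and stood at -0.23 ± 0.08 (adjusted p = 0.0507) in WT at 15 d. Its adaptor Napb passed in GS at 15 d, -0.32 ± 0.11 (adjusted p = 0.0375), with -0.19 ± 0.11 in WT. The Nsf call at 3 d was lost without GS intact replicate 1 or GS 3 d replicate 2 (adjusted p up to 0.0624), and that of Napb without GS intact replicate 1, GS intact replicate 2 or GS 15 d replicate 2 (adjusted p up to 0.246).

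At the active zone the priming factor Unc13a fell from 6 h onward, while the large scaffold Pclo did not pass at any time. Unc13a (NCBI Gene 382018, chromosome 8, 71624125 to 71671774, minus strand) codes for Munc13-1. For Unc13a, GS libraries read 454 and 489 CPM in intact tissue, 347 and 332 at 6 h, 338 and 284 at 3 d, and 295 and 302 at 15 d. Unc13a in WT striatum measured 408 and 418 CPM in intact tissue, 332 and 322 at 6 h, 339.8 and 321 at 3 d, and 269.8 and 279.8 at 15 d. Every injured library was below every intact library of its genotype. In GS it fell at 6 h, -0.47 ± 0.08 (adjusted p = 0.00157), at 3 d, -0.60 ± 0.08 (adjusted p = 5.63e-05), and at 15 d, -0.66 ± 0.08 (adjusted p = 2.21e-05). In WT it fell at 6 h, -0.34 ± 0.08 (adjusted p = 0.0273), at 3 d, -0.32 ± 0.08 (adjusted p = 0.00702), and at 15 d, -0.59 ± 0.08 (adjusted p = 0.000143). The WT call at 6 h was lost without any of the 4 libraries compared (adjusted p up to 0.212), and that at 3 d without WT 3 d replicate 2 (adjusted p = 0.0539). Unc13c in GS striatum measured 292 and 285 CPM in intact tissue, 302 and 279 at 6 h, 259.6 and 271 at 3 d, and 253 and 193 at 15 d. WT libraries held Unc13c at 304 and 306 CPM in intact tissue, 299 and 236 at 6 h, 333 and 256 at 3 d, and 239.8 and 233 at 15 d. Unc13c, the paralog best known from cerebellum, was below both intact libraries at 15 d in each genotype. It passed in GS at 15 d, -0.37 ± 0.13 (adjusted p = 0.0401), and had the same size of change in WT, -0.37 ± 0.13 (adjusted p = 0.0559), which passed in DESeq2 (adjusted p = 0.0238). The GS call was lost without 5 of the 16 libraries (adjusted p up to 0.366).

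RIM proteins link vesicles, calcium channels and Unc13. GS libraries held Rims1 at 115 and 125 CPM in intact tissue, 104 and 101 at 6 h, 95.4 and 104 at 3 d, and 92.5 and 82.7 at 15 d. For Rims1, WT libraries read 134 and 111 CPM in intact tissue, 103 and 115 at 6 h, 91.2 and 84.6 at 3 d, and 93.6 and 83.1 at 15 d. Rims1 was below intact in all injured GS libraries, and in the 3 d and 15 d WT libraries. It fell at 15 d in GS, -0.46 ± 0.10 (adjusted p = 0.0019), and in WT, -0.47 ± 0.10 (adjusted p = 0.00275). Rims2 passed in GS at 15 d, -0.32 ± 0.08, with -0.21 ± 0.08 in WT. Rims1 in WT did not pass without WT intact replicate 1 (adjusted p = 0.0507), and Rims2 in GS did not pass without GS 15 d replicate 2 (adjusted p = 0.0947). For Rims3, GS libraries read 77.6 and 71 CPM in intact tissue, 77.5 and 81.5 at 6 h, 74.8 and 68.3 at 3 d, and 78.5 and 73.6 at 15 d. Rims3 in WT striatum measured 83.9 and 86 CPM in intact tissue, 68.7 and 70 at 6 h, 74.2 and 76.8 at 3 d, and 81.5 and 76.1 at 15 d. Rims3, a short family member, was below intact in all injured WT libraries and overlapped intact at every time in GS. It fell in WT at 6 h, -0.29 ± 0.07 (adjusted p = 0.0298), with 0.10 ± 0.07 (adjusted p = 0.389) in GS. The difference between these 2 responses had the lowest p of all members at 6 h and did not pass, 0.39 ± 0.10 (adjusted p = 0.244). The WT call was lost without any of the 4 libraries compared (adjusted p up to 0.171).

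Bassoon and piccolo are the giant scaffolds of the active zone. Bsn in GS striatum measured 369.5 and 404 CPM in intact tissue, 376 and 345 at 6 h, 300.2 and 299 at 3 d, and 305 and 304 at 15 d. WT libraries held Bsn at 348 and 311 CPM in intact tissue, 338 and 366 at 6 h, 315 and 282 at 3 d, and 283 and 301 at 15 d. Bsn was below intact in GS at 3 d and 15 d, and in WT at 15 d. It fell in GS at 3 d, -0.37 ± 0.08 (adjusted p = 0.00249), and at 15 d, -0.34 ± 0.08 (adjusted p = 0.00355), and stood at -0.17 ± 0.08 (adjusted p = 0.125) in WT at 15 d. GS libraries held Pclo at 248 and 257 CPM in intact tissue, 242 and 219.9 at 6 h, 219 and 227 at 3 d, and 222 and 209.6 at 15 d. For Pclo, WT libraries read 218 and 223 CPM in intact tissue, 226 and 246 at 6 h, 270.3 and 207 at 3 d, and 223 and 204 at 15 d. Pclo was below both intact libraries in all injured GS libraries, whereas the WT values lay on both sides of intact. Its changes did not pass, with -0.23 ± 0.10 (adjusted p = 0.0924) in GS and -0.05 ± 0.10 (adjusted p = 0.777) in WT at 15 d. Erc2, a further scaffold (ELKS2), did not pass at 6 h. It stood at 0.17 ± 0.12 (adjusted p = 0.39) in GS and 0.39 ± 0.12 (adjusted p = 0.0945) in WT at 6 h. It fell at 3 d in GS, -0.52 ± 0.12, where the WT change was -0.07 ± 0.12, and at 15 d in GS, -0.66 ± 0.12 (adjusted p = 0.00094), and in WT, -0.45 ± 0.12 (adjusted p = 0.0169). The WT call was lost without WT intact replicate 1, WT intact replicate 2 or WT 15 d replicate 2 (adjusted p up to 0.159).

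All 3 endocytic genes were lower at 15 d in both genotypes. For Dnm1, GS libraries read 509.8 and 446 CPM in intact tissue, 453 and 447 at 6 h, 370.5 and 337 at 3 d, and 368 and 357 at 15 d. Dnm1 in WT striatum measured 478 and 467 CPM in intact tissue, 459 and 476 at 6 h, 388 and 342 at 3 d, and 371 and 366 at 15 d. Dnm1, the neuronal dynamin that cuts endocytic vesicles off the membrane, was below intact at 3 d and 15 d in each genotype. It fell at 15 d in GS, -0.40 ± 0.08 (adjusted p = 0.00112), and in WT, -0.36 ± 0.08 (adjusted p = 0.00394). The WT call was lost when the 3 WT libraries with most cortical transcripts were left out, as was that of Sncb at 15 d. Snap91 in GS striatum measured 169.6 and 155 CPM in intact tissue, 152 and 153 at 6 h, 139 and 135 at 3 d, and 129 and 121 at 15 d. WT libraries held Snap91 at 167 and 165 CPM in intact tissue, 159 and 163 at 6 h, 161 and 142 at 3 d, and 149.8 and 124 at 15 d. Snap91 codes for the clathrin adaptor AP180, and all its injured libraries were below both intact ones in each genotype. It fell at 15 d in GS, -0.38 ± 0.09 (adjusted p = 0.00326), and in WT, -0.28 ± 0.09 (adjusted p = 0.0271). Amph, which codes for amphiphysin, a dynamin partner, fell at 15 d in GS, -0.43 ± 0.08 (adjusted p = 0.000711), and in WT, -0.28 ± 0.08 (adjusted p = 0.0188). Sncb, which codes for beta-synuclein, fell at 3 d in GS, -0.55 ± 0.09 (adjusted p = 0.000484), and in WT, -0.52 ± 0.09 (adjusted p = 0.00121), and at 15 d in GS, -0.51 ± 0.09, and in WT, -0.45 ± 0.09. In WT the 15 d call of Snap91 was lost without WT intact replicate 1, WT intact replicate 2 or WT 15 d replicate 2 (adjusted p up to 0.291), and that of Amph without WT intact replicate 1, WT intact replicate 2 or WT 15 d replicate 2 (adjusted p up to 0.172).

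Rab3 GTPases ride on the vesicle and bind Rim and rabphilin. GS libraries held Rab3c at 359 and 359.6 CPM in intact tissue, 355 and 338 at 6 h, 341 and 352 at 3 d, and 303 and 274 at 15 d. For Rab3c, WT libraries read 338 and 352 CPM in intact tissue, 328 and 343 at 6 h, 363 and 323 at 3 d, and 304 and 266 at 15 d. Rab3c at 15 d was below every other stage in each genotype. It passed at 15 d in GS, -0.32 ± 0.08 (adjusted p = 0.00553), and in WT, -0.27 ± 0.08 (adjusted p = 0.0199), and at 3 d stood at -0.05 ± 0.08 in GS and -0.01 ± 0.08 in WT. The 15 d call was lost in GS without GS 15 d replicate 2 (adjusted p = 0.076) and in WT without WT intact replicate 1, WT intact replicate 2 or WT 15 d replicate 2 (adjusted p up to 0.205). For Rab3b, GS libraries read 28.3 and 36.1 CPM in intact tissue, 29.8 and 31.3 at 6 h, 27.5 and 24.5 at 3 d, and 30.1 and 25.9 at 15 d. Rab3b in WT striatum measured 29.5 and 29.4 CPM in intact tissue, 29.5 and 33.9 at 6 h, 28.3 and 25.3 at 3 d, and 33.4 and 27.6 at 15 d. Rab3b was below intact at 3 d in each genotype and overlapped it at 15 d. None of its changes passed, with -0.20 ± 0.13 (adjusted p = 0.232) in GS and 0.05 ± 0.13 (adjusted p = 0.795) in WT at 15 d.

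**Figure D3:**
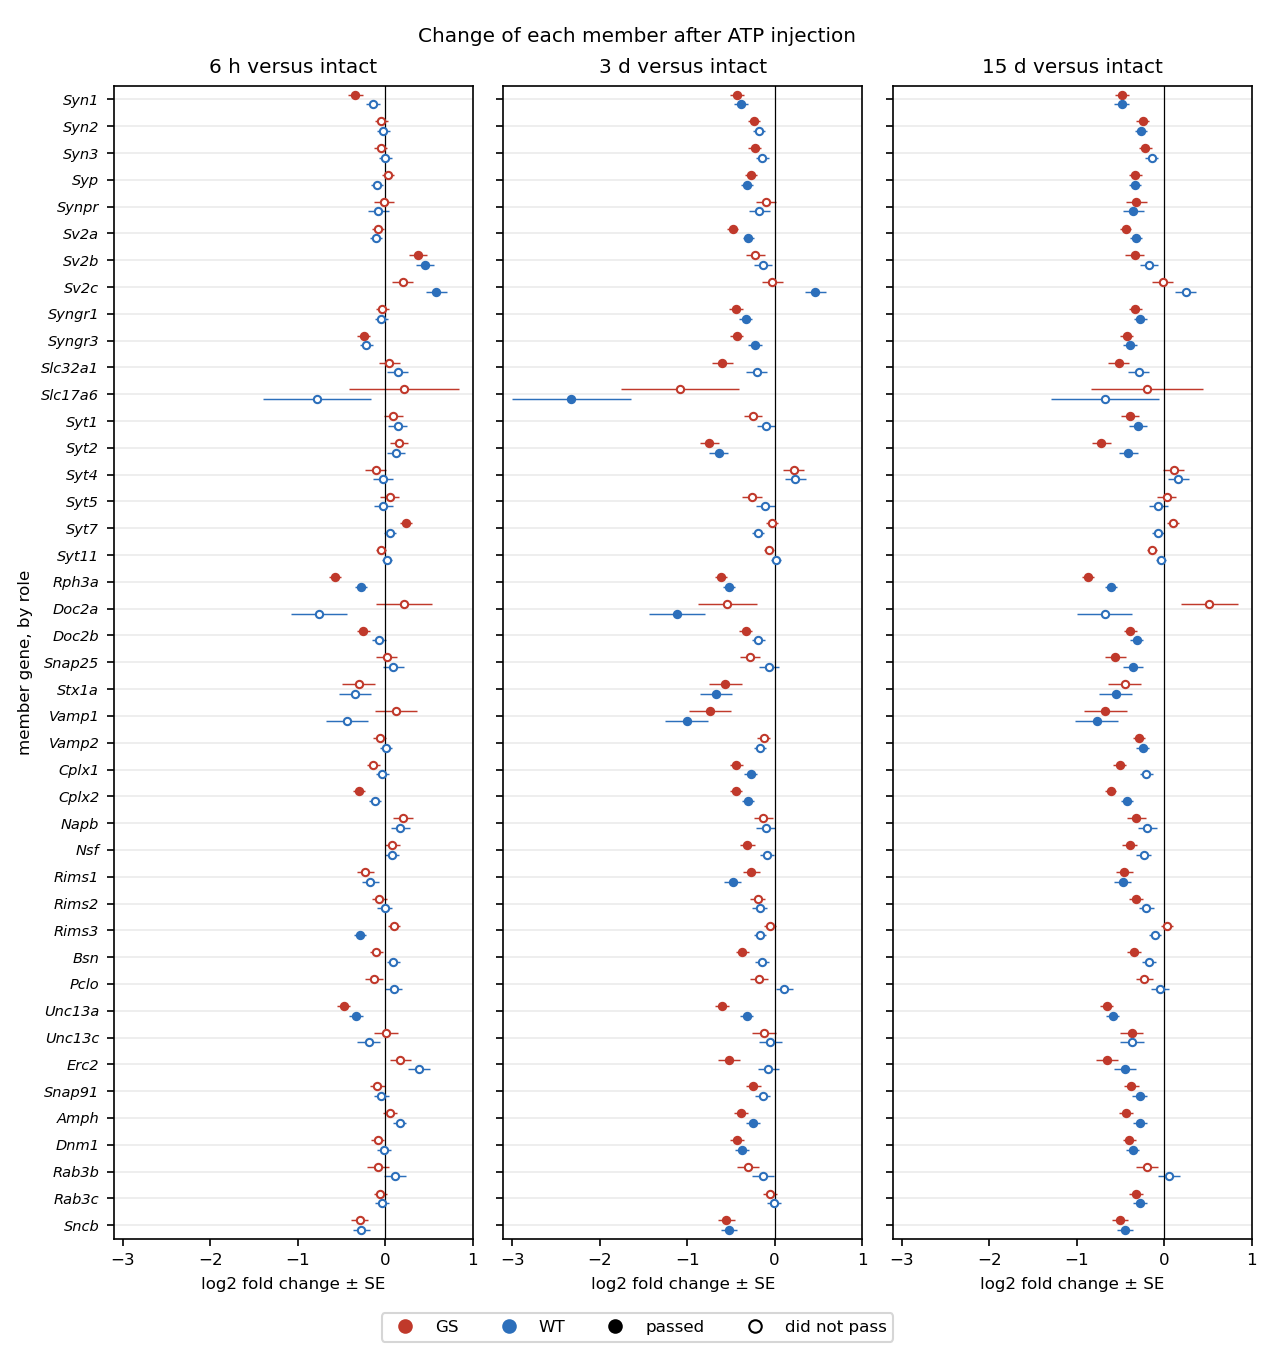
Log2 fold change ± SE of each member against intact striatum of the same genotype (x axis) at 6 h, 3 d and 15 d, GS in red above WT in blue, with filled points for members that passed. At 15 d all filled points lie below 0, while at 6 h Sv2b, Sv2c and Syt7 are filled above 0. The widest bars belong to Slc17a6, whose counts were the lowest.

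Calls were set side by side between the genotypes, which share no library. At 3 d, 16 members were lower in both, 66.7% of those lower in GS and 88.9% of those lower in WT. At 15 d, 23 were lower in both, 71.9% of those lower in GS and 95.8% of those lower in WT. Over all genes tested, the genes lower in both made up 48.4% of those lower in GS and 62.9% of those lower in WT at 3 d, and 50.4% in GS and 79.4% in WT at 15 d. A larger share of members than of all genes was called in each comparison, so nothing particular to the members is read from it. Stx1a was lower in WT without passing in GS at 15 d, -0.45 ± 0.19 (adjusted p = 0.0745), and Syn3, Sv2b, Cplx1, Rims2, Bsn, Unc13c, Napb, Nsf and Slc32a1 were lower in GS without passing in WT. The difference itself was tested for every member. No member passed for the difference of the responses at 6 h, 3 d or 15 d, where 0.0106%, 0% and 0% of all genes passed. An unadjusted p under 0.05 was found for 4, 4 and 3 members, and DESeq2 and limma-voom called 0 at each time. The counts of all genes at that unadjusted threshold are not given here, so nothing particular to the members is read from these. At 15 d the lowest p was that of Cplx1, -0.30 ± 0.11 (adjusted p = 0.881), with a 95% confidence interval of -0.55 to -0.06. The median member had a 95% interval of ± 0.275 (log2) around its difference of responses. With 2 libraries a group, an interval of that width includes 0 for an estimate below about 1.21-fold, even without adjustment.

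GS and WT were also compared directly at each stage, and no member passed. In intact striatum 0 of 43 passed, where 0.0159% of all genes did. An unadjusted p under 0.05 was found for 7 members and for 2056 of the 18813 genes. The lowest p was that of Rph3a, higher in GS by 0.27 ± 0.07 (adjusted p = 0.242). DESeq2 called this 1 member (adjusted p = 0.0139), and limma-voom called 0, with the shares of all genes not given here. At 6 h 0 of 43 passed (0.00532% of all genes), at 3 d 0 (0.0106% of all genes) and at 15 d 0 (0.00532% of all genes). At 6 h 2 members and 1285 of the 18813 genes had an unadjusted p under 0.05. At 3 d 3 members had one and at 15 d 0, with the counts over all genes not given here. Nothing particular to the members is read from these counts. DESeq2 and limma-voom called 0 members at each of these 3 stages. Without WT 3 d replicate 2, Erc2 passed at 3 d, and without GS 3 d replicate 1, Syt5 did. The members' median difference between GS and WT was 0.02 when intact, -0.03 at 6 h, -0.06 at 3 d and -0.07 at 15 d (log2), and over all genes it was -0.01, 0.00, 0.00 and 0.00.

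The members were also compared between 15 d and 3 d. None passed in GS, where 2.1% of all genes passed, or in WT, where 3.2% did. An unadjusted p under 0.05 was found for 7 members in GS, where 3734 of the 18813 genes had one. In WT it was found for 7 members, where 3540 of the 18813 genes had one. The lowest p in GS was that of Rph3a, -0.26 ± 0.07 (adjusted p = 0.0694), and in WT that of Unc13a, -0.27 ± 0.08 (adjusted p = 0.0716). DESeq2 called 3 members in GS (Rab3c and Rph3a lower, Doc2a higher) and 3 in WT (Erc2, Rab3c and Unc13a, all lower), and limma-voom called 0 in both. The share of all genes passing with these tools, or in the fits below with a library left out, is not given here. Nothing particular to the members is therefore read from these counts. Without WT 3 d replicate 2, in which Snap25 was 912 CPM against 1253 in replicate 1, 6 members passed in WT (Erc2, Nsf, Pclo, Rab3c, Snap25 and Sv2c). Without GS 3 d replicate 1 or 2 or WT 15 d replicate 1, 1 passed in WT, and without WT intact replicate 1 or 2 or GS 3 d replicate 1, 1 passed in GS.

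Other genes of the vesicle cycle that are no members, 72 of which were tested, went in both directions. At 15 d 33 were lower and 13 higher in GS, and 23 were lower and 7 higher in WT, with a median of -0.17 in GS and -0.19 in WT. At 3 d the numbers were 24 lower and 10 higher in GS, and 25 lower and 12 higher in WT, and at 6 h 6 lower and 7 higher in GS, and 3 lower and 4 higher in WT. Among those that passed, the largest rises at 15 d were those of Syt15, a synaptotagmin that does not bind calcium, 2.95 ± 0.51 in GS and 2.65 ± 0.52 in WT, Syngr2, the widely expressed synaptogyrin, 1.87 ± 0.20 in GS and 1.44 ± 0.20 in WT, and Vamp8, an endosomal SNARE found in many non-neuronal cells, 1.52 ± 0.21 in GS and 1.40 ± 0.21 in WT. The same 3 led at 3 d in both genotypes. Syt15 was near the floor, at 0.342 and 0.274 CPM in GS intact and 0.0712 and 0.545 CPM in WT intact libraries. The largest falls among those that passed at 15 d were those of Slc18a3, the vesicular acetylcholine transporter of cholinergic interneurons, -0.89 ± 0.13 in GS and -0.56 ± 0.13 in WT, Slc17a8 (VGLUT3), -0.80 ± 0.18, and the endophilin gene Sh3gl2, -0.67 ± 0.13, in GS, and Syt13, -0.57 ± 0.14, and Rimbp2, -0.54 ± 0.09, in WT. Slc17a7, also counted among the cortical markers, had the lowest estimate at 15 d without passing, -1.83 ± 0.84 in GS and -1.73 ± 0.80 in WT. At 3 d the largest falls that passed were Syt3, -0.75 ± 0.08, Svop, -0.65 ± 0.09, and Slc18a3, -0.62 ± 0.13, in GS, and Slc17a7, -3.50 ± 0.88, Syt17, -0.75 ± 0.25, and Stx3, -0.74 ± 0.11, in WT.

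At 6 h, Trim9, a neuronal ubiquitin ligase, fell in GS, -0.86 ± 0.08, and in WT, -0.33 ± 0.08, and Vamp4, a SNARE of the trans-Golgi network, rose in GS, 0.40 ± 0.08, and in WT, 0.29 ± 0.08. Further genes named in GS were Syt10, 0.92 ± 0.22, Rph3al, 0.92 ± 0.26, Cacna1a, which codes for the P/Q-type calcium channel of many terminals, -0.60 ± 0.07, and Rab3ip, -0.52 ± 0.09. In WT they were Rimbp2, 0.54 ± 0.09, Prrt2, 0.28 ± 0.07, Syt17, -1.04 ± 0.25, and Rims4, -0.46 ± 0.10. Rph3al was low, at 1.01 and 1.08 CPM in GS intact and 2.28 and 1.67 CPM in GS 6 h libraries. Between 3 d and 15 d, where no member passed, Trim9 was lower at 15 d in GS, -0.46 ± 0.08, and in WT, -0.63 ± 0.08, and against intact striatum it stood at 0.11 ± 0.08 in GS and 0.45 ± 0.08 in WT at 3 d, and at -0.36 ± 0.08 in GS and -0.19 ± 0.08 in WT at 15 d. Over the same interval Rab3ip fell in GS, -0.38 ± 0.09, and in WT, -0.36 ± 0.09, and Ppfia4, a liprin, rose in GS, 0.38 ± 0.08, and in WT, 0.35 ± 0.08.

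Other neuronal genes fell over the same days. Of 19 pan-neuronal genes, 13 were lower at 15 d in GS (median -0.41) and 11 in WT (median -0.31). Among them Rbfox3, the gene of the neuronal nuclear marker NeuN, changed by -0.61 ± 0.10 in GS and -0.42 ± 0.10 in WT. Of 18 postsynaptic genes, 14 were lower in GS (median -0.30) and 10 in WT (median -0.23). Of 18 markers of striatal projection neurons, 17 were lower in GS (median -0.58) and 10 in WT (median -0.35), and 1 was higher in GS. Of 10 interneuron markers, 6 were lower in GS and 8 in WT. At 6 h, 7 projection neuron markers were lower and 1 higher in GS, and none was lower and 1 higher in WT. The members' medians at 15 d, -0.37 in GS and -0.29 in WT, thus lay among those of the other neuronal lists, and no test of a difference between lists was made.

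Most markers of microglia and astrocytes were higher at 15 d. Of 9 markers of microglia and macrophages, 9 were higher in GS and 8 in WT at 15 d, with medians of 1.85 in GS and 1.52 in WT, whereas at 6 h 3 were lower in GS and 1 in WT, and none was higher. Beside the 6 h calls of the members, 7 of 8 endothelial markers were lower in GS and 1 of 8 in WT, with medians of -0.73 in GS and -0.40 in WT. All 4 erythrocyte genes tested were higher at 6 h in both genotypes, by a median of 7.95-fold in GS and 14.5-fold in WT, and the part of these shifts in the 6 h calls was not tested. Of 8 astrocyte markers, 5 were higher at 15 d in GS and 5 in WT, and Gfap stood at 1030.3 and 1229 CPM in GS at 15 d against 31.2 and 27.7 in GS intact, and at 656 and 1199 in WT at 15 d against 27.2 and 32.8 in WT intact. Summed microglial markers were 1194 and 1682 CPM in GS at 15 d against 317 and 302 in GS intact, and 739 and 1181 in WT at 15 d against 302 and 295 in WT intact. CPM are shares of a library, and the part of the glial rise in the fall of the members was not tested.

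**Figure D4:**
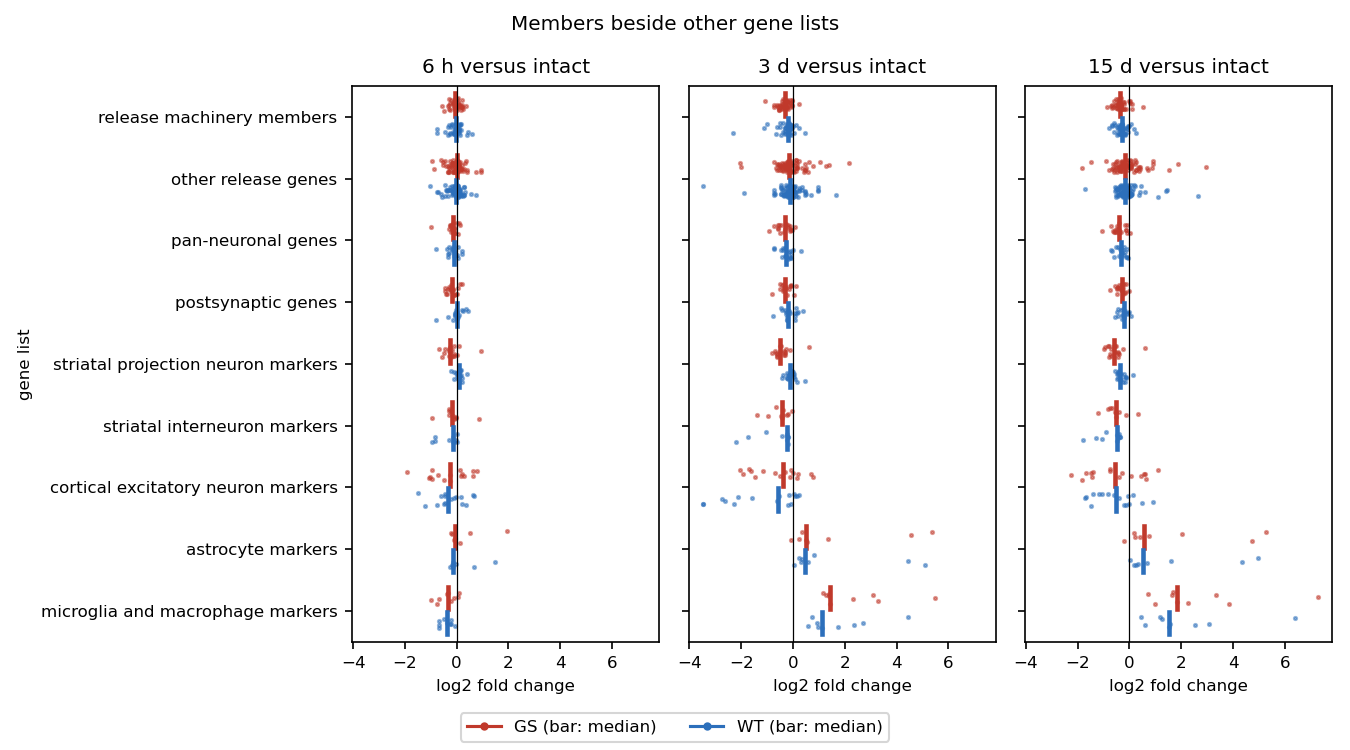
Log2 fold change against intact striatum (x axis) of every tested gene in 9 lists (rows) at 6 h, 3 d and 15 d, GS in red above WT in blue, with a bar at each list's median. At 15 d the medians of the members and of the other neuronal lists lie below 0, and those of astrocyte and microglia markers above 0.

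Transcripts of cortical neurons differed between libraries and moved with the comparison in both genotypes. Their mean level over 16 markers (log2 CPM) was 3.39 and 3.45 in GS intact and 4.38 and 3.18 in WT intact libraries, 3.15 and 3.08 in GS and 3.19 and 4.01 in WT at 6 h, 2.59 and 2.95 in GS and 2.92 and 2.63 in WT at 3 d, and 3.10 and 2.54 in GS and 3.71 and 2.92 in WT at 15 d. By this mean, all injured GS libraries were below both GS intact ones, and the WT libraries at 3 d below both WT intact ones. Those of WT at 6 h and 15 d overlapped WT intact. Summed cortical markers ran from 451 to 665 CPM over the GS libraries and from 471 to 789 CPM over the WT libraries. Lamp5, Mef2c and Lmo4 made up much of these sums. In GS 6 h replicate 1, the highest GS library by sum, Lamp5 stood at 192 CPM, Mef2c at 172 and Slc17a7 at 15.3. Of the 18 markers listed, 16 were in the table, which holds no gene at 0 in any library, so a marker at 0 could not be seen, and Neurod6 ran from 0.162 to 7.21 CPM. Over the 16 libraries, which share groups and stages, Pearson's r between a member's log2 CPM and this score ran from -0.31 to 0.826 with a median of 0.539, and was above 0 for 41 of the 43 members, while the median over all genes tested was 0.045. The 2 WT intact libraries differed most in this score, and their member sums were 12801 and 12629 CPM. The part of cortical RNA in the changes of the members was not tested beyond the fits that follow. For those fits the share of all genes passing is not given here, so a loss particular to the members cannot be read from them. With the score as a covariate, 8, 18 and 27 members passed at 6 h, 3 d and 15 d in GS, and 4, 8 and 18 in WT. Of the 19 calls in WT at 3 d, 11 were lost with it. They were those of Amph, Cplx1, Cplx2, Doc2a, Slc17a6, Stx1a, Sv2a, Syn1, Syngr1, Syngr3 and Syp. When WT intact replicate 1, WT 15 d replicate 1 and WT 6 h replicate 2 were left out together, the 3 WT libraries with the highest scores, 0, 7 and 10 members passed in WT, with fewer libraries behind each comparison. The WT calls of Dnm1, Sncb, Sv2a and Syp at 15 d were lost without those 3 libraries, though they held without each single library. Choroid plexus RNA was uneven as well, with Ttr at 359 and 56.9 CPM in the GS intact libraries, and its part was not tested.

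**Figure D5:**
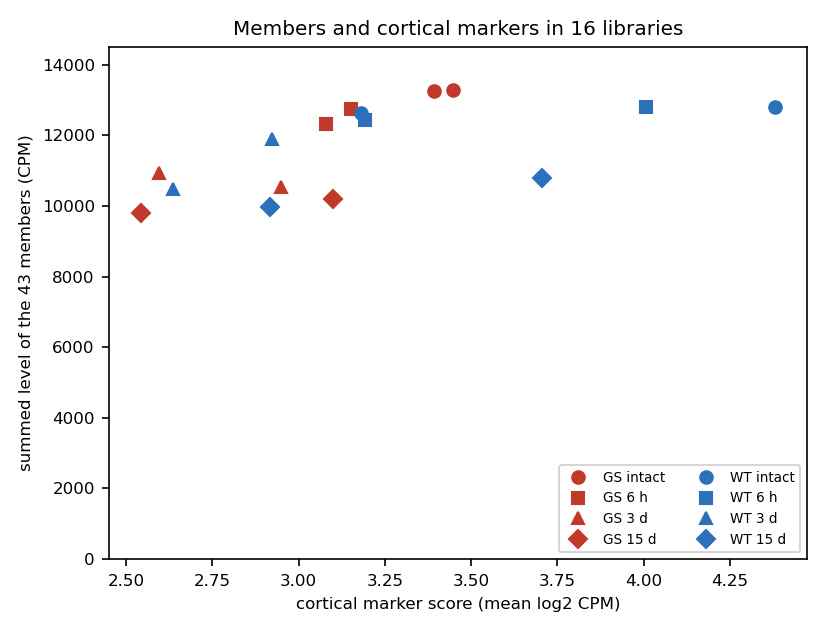
Summed CPM of the 43 members (y axis, from 0) against the mean log2 CPM of the cortical markers (x axis) in each of the 16 libraries, GS in red and WT in blue, with the stage as the symbol. The 4 libraries at 15 d lie between 9789 and 10777 CPM and the 4 intact libraries between 12629 and 13284 CPM, over a wide range of the cortical score in WT.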

How the data were processed

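The authors deposited 1 table of read counts per gene for the 16 libraries. Per the labels' protocols, RNeasy kits gave total RNA, from which TruSeq RNA libraries were built. FastQC 0.11.7 and the mm10 build are named in the submitters' processing notes, while aligner, counting tool and strand setting were not given in the sources used here. Every gene in the deposited counts has at least 1 count in every library, so genes silent in a library had already been removed. Counts were tested as deposited with edgeR 4.0.16 (R 4.3.3): filterByExpr kept 18813 of 19457 genes, libraries were scaled by TMM, and the quasi-likelihood fit over all 16 libraries had 1 term for each group, leaving 8 residual degrees of freedom. Benjamini-Hochberg adjustment ran over all genes tested, with a threshold of 0.05. SE was taken as the size of the log2 fold change over the root of the F statistic. CPM use TMM library sizes, and levels per kb use the union of GENCODE M21 exons. The members and all gene lists were chosen with earlier results of these data known. Values in every library are given for members fixed by name across the roles and for up to 3 members in each direction and comparison by size of change among the members that passed. Of the other release genes, up to 3 in each direction and comparison are named. Genes outside the members with a pattern like that of Snap25 are not reported here. Alternatives were DESeq2 1.42.0, limma-voom 3.58.1, RLE scaling, other filters, a replicate block, a cortical covariate and libraries left out. The procedure was checked on simulated counts. Replicate numbers were not shown to pair the samples: differences between replicates 1 and 2 correlated between compared groups at -0.0732 to 0.171 over all genes.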

Additional observations from a re-analysis of the deposited data

How the results depend on the processing

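The counts of members passing were within 1.5 times the reported ones under RLE scaling, limma-voom, no filter on low counts and a mean of at least 1 CPM, and scaling moved the median of all genes by less than 0.03 (log2). DESeq2 gave 3 members for 15 d against 3 d in GS and 3 in WT, where edgeR gave 0, and 1 for GS against WT in intact striatum. Fitting the groups of the contrast alone gave 12 members in WT at 3 d, and the cortical covariate gave 8. The share of all genes passing under these alternatives is not given here. Leaving out together the 3 WT libraries with most cortical transcripts, the WT counts were 0 at 6 h, 7 at 3 d and 10 at 15 d, and the cause was not tested. With the replicate number as a block, that is with samples paired by number, 9, 25 and 32 members passed in GS and 5, 19 and 26 in WT at 6 h, 3 d and 15 d, and 0 in the other comparisons. Leaving out 1 library at a time, the counts ranged in GS from 2 to 9 at 6 h, 17 to 26 at 3 d and 22 to 33 at 15 d. In WT they ranged from 0 to 6 at 6 h, 11 to 20 at 3 d and 10 to 28 at 15 d. For 15 d against 3 d they ranged from 0 to 1 in GS and 0 to 6 in WT, for GS against WT at 3 d from 0 to 1, for the difference of responses at 3 d from 0 to 1, and they were 0 in the remaining genotype comparisons. No direction of a member that passed turned round under any of these alternatives. Members at low counts, Slc17a6 and Doc2a, are limited by depth, and 2 libraries a group limit all of them.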
